A study of Homo sapiens with 12 samples.

Results

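The genes of cholesterol and fatty acid synthesis form a set of 33 genes, chosen by symbol from the 54628 gene symbols of the deposited count table: 7 genes from acetyl-CoA to farnesyl diphosphate (the mevalonate steps), 11 genes of the sterol branch, 5 genes of the SREBP system that controls them, 7 genes of fatty acid synthesis and desaturation, and 3 genes driven by the sterol sensor LXR that lower cell cholesterol. All 33 symbols were in the table and 31 passed the filter on low counts. ELOVL6 and ABCG1 did not pass it and were not tested. The lowest level of any tested member in any library was 2.47 CPM (counts over the scaled library size, times 1e+06), for ACACA in ERKi replicate 3.

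Poly(A) RNA came from OCI-AML3, an established human acute myeloid leukaemia cell line, after 24 h of treatment, and was sequenced as paired ends. The 12 libraries form 4 groups of 3: the combination of both drugs (Comb), the ERK inhibitor alone (ERKi, given as compound 27), venetoclax alone (ABT199, which blocks the survival protein BCL2), and DMSO as the solvent control. All groups are 1 line, and no dose is named in the labels. They do not say whether replicates were separate cultures, so each p-value measures the spread between libraries, which may be technical.

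Cells make cholesterol from acetyl-CoA through mevalonate, isoprenoid diphosphates, squalene and lanosterol, and make fatty acids from the same acetyl-CoA through malonyl-CoA. When membrane sterol is low, SCAP carries the SREBP proteins from the endoplasmic reticulum to the Golgi apparatus, where proteases free the part that enters the nucleus and raises transcription of most genes of both pathways, together with the partner factors NF-Y and SP1. When sterol is plentiful, INSIG proteins hold SCAP back, and oxysterols activate LXR, which raises ABCA1, ABCG1 and MYLIP.

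The line and its treatments were checked first. Library totals ran from 19199296 to 21275065 counts. DUSP6, a phosphatase gene that ERK signalling keeps on, was at 1.62, 1.19 and 0.995 CPM in combination libraries, at 1.89, 2.68 and 2.14 CPM in ERK inhibitor libraries, at 15.4, 14.1 and 17.8 CPM in venetoclax libraries and at 15.4, 14.7 and 14.1 CPM in DMSO libraries. Myeloid identity genes (SPI1, CEBPA, CD33 and others, 7 in all) summed to 1108 to 1149 CPM in DMSO libraries, while 5 lymphoid and 4 erythroid markers each summed to no more than 1.52 CPM in any library, with CD3D, MS4A1 and HBB among those at 0 in all 12. The first of the DMSO libraries differed from its partners: chi-square per degree of freedom over all genes was 17.1 and 16.2 between DMSO replicate 1 and replicates 2 and 3, and 2.41 between those. Among the 31 tested members replicate 1 was the lowest DMSO library for 12 and the highest for 16, with a median absolute log2 gap of 0.19 to the mean of the other 2, so results against DMSO are given below with and without it where a call depends on it.

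Promoters of 28 of the 33 members were found in the RefSeq table for GRCh38.p14, as 37 windows from 250 bases before to 50 bases after the annotated start, 300 bases each. They were searched on both strands for TCACNCCAC, an SREBP element, CCAAT, the NF-Y element, GGGCGG, the SP1 element, and CACGTG, the E-box. CCAAT was present in 67.6% of the member windows, against 34.4% of the windows of all tested genes and 34.6% of all windows in the table. By gene, 21 of 28 members held CCAAT in at least 1 window, among them 13 of the 15 mevalonate and sterol genes that matched, against 42.7% of tested genes. GGGCGG stood in 89.2% of member windows, against 64.1% of the windows of tested genes and 45% of all windows. CACGTG stood in 16.2%, against 9.33% and 7.26%. TCACNCCAC stood in 1 window, that of SREBF2 (2.7%, against 1.04% and 1.13%). These matches describe letters in the windows, not binding. CCAAT matches on opposite strands can overlap, as they do once in the NSDHL window. Shown here are windows from each branch, with CCAAT or its reverse complement ATTGG, and the TCACNCCAC match, in capitals. HMGCS1 (chr5:43313363-43313662, minus strand), MVK (chr12:109573544-109573843, plus strand), MSMO1 (chr4:165327419-165327718, plus strand), NSDHL (chrX:152830813-152831112, plus strand), SREBF2 (chr22:41832855-41833154, plus strand) and SCD (chr10:100346983-100347282, plus strand) fell with the ERK inhibitor, and MYLIP (chr6:16128836-16129135, plus strand), which rose, is shown for contrast. Each is written 5′ to 3′ on the strand of its gene.
HMGCS1: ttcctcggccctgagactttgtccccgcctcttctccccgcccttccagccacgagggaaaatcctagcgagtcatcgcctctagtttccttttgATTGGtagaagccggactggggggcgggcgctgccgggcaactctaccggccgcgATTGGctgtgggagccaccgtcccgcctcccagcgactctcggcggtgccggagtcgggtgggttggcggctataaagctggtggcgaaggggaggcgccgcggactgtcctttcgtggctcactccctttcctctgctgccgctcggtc
MVK: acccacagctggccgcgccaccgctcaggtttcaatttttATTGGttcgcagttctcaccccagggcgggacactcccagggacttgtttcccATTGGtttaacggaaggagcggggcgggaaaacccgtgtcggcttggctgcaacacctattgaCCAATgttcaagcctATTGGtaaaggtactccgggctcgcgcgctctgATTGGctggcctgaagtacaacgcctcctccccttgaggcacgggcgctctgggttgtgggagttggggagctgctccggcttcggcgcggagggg
MSMO1: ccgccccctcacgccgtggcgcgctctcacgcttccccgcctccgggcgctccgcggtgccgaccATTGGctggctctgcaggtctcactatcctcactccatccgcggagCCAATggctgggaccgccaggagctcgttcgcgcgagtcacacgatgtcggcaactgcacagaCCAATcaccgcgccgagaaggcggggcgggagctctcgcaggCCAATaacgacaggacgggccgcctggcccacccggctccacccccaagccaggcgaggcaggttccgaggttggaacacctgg
NSDHL: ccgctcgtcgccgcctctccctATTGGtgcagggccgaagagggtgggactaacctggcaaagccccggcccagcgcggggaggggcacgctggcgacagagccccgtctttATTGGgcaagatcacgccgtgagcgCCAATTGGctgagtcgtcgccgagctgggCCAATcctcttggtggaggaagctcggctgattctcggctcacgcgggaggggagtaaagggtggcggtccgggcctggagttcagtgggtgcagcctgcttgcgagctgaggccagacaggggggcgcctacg
SREBF2: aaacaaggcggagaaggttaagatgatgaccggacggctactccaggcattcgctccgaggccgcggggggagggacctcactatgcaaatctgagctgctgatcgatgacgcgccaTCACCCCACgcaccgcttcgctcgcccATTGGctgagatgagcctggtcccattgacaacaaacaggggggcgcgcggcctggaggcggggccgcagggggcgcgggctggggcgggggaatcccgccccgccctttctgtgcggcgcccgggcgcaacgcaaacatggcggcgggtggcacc
SCD: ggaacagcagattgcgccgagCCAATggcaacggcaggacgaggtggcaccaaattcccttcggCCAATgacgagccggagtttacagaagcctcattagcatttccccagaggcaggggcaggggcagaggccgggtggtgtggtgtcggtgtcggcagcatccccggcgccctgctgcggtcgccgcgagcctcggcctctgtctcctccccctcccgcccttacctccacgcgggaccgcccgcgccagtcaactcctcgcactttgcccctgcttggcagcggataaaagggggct
MYLIP: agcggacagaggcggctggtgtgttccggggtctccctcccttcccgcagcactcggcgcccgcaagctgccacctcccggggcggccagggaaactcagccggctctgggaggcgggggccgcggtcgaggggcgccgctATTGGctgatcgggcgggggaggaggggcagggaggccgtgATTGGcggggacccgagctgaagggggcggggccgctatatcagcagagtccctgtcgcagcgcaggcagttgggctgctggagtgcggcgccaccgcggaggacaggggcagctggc

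CCAAT occurred 5 times in the MVK and NSDHL windows, 4 times in MSMO1 and 2 times in HMGCS1, SCD and MYLIP. In SREBF2 the SREBP element began 133 bases before the start and the single CCAAT match 106 bases before it. The MYLIP window, of a gene that rose, thus held as many CCAAT matches as the SCD window and the HMGCS1 window shown. A second HMGCS1 window in the table, from another annotated start (chr5:43313132-43313431), held 0. Each falling gene shown held CCAAT, but the windows of SREBF1, FADS1 and CYP51A1, which also fell with the ERK inhibitor, held 0. Of the members not called with the ERK inhibitor, TM7SF2, STARD4 and ACACA held CCAAT in at least 1 window. PMVK and SCAP, also not called, held 0.

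The ERK inhibitor alone lowered most of both pathways and raised the 2 measured LXR-driven genes. Of the 31 tested members, 24 were lower and 2 were higher than in DMSO libraries at an adjusted p under 0.05 in edgeR's quasi-likelihood test with Benjamini-Hochberg adjustment over all 15173 tested genes, the rule for every call here. Among all tested genes 35.2% were called lower and 34.5% higher in the same comparison. The median log2 fold change of the members was -0.97, against 0.01 over all tested genes, and 14 members were lower by more than 2-fold. Summed over the 33 members, ERK inhibitor libraries held 2442 to 2483 CPM and DMSO libraries 5660 to 5763 CPM. Without DMSO replicate 1 the counts were 25 lower and 2 higher. In bulk RNA, fewer cells that express a gene and less of its RNA per cell cannot be told apart.

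The combination lowered most members against DMSO as well. It had 24 members lower and 2 higher, beside 33.4% and 30.4% of all tested genes, and 23 of the 24 members that fell with the ERK inhibitor alone were also lower here. Both comparisons use the same DMSO libraries, so this count is not independent support. The median log2 fold change was -0.82, against -0.01 over all tested genes, and the 33 members summed to 2702 to 2799 CPM in combination libraries. Against venetoclax alone, a comparison that uses the same combination libraries but no DMSO library, the combination had 23 members lower and 2 higher, beside 34.2% and 32.1% of all tested genes, with a median of -0.89.

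Venetoclax alone moved no member past the threshold. In edgeR's quasi-likelihood test 0 of 31 were called in either direction and 2 had an unadjusted p under 0.05; DESeq2 and limma-voom called 0 as well. The background was low: 0.0198% of all tested genes were called higher and 0.382% lower. Leaving out ACACA, whose replicates scattered widely, log2 fold changes of the other 30 members lay between -0.20 and 0.14, and their 95% intervals lay between -0.42 (MVK) and 0.50 (TM7SF2), so changes beyond about those sizes lie outside the intervals. The lowest adjusted p among them was 0.377. Without DMSO replicate 1, 1 member was called higher, FADS2, with a log2 fold change of 0.17 and an adjusted p of 0.0164.

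**Figure D1:**
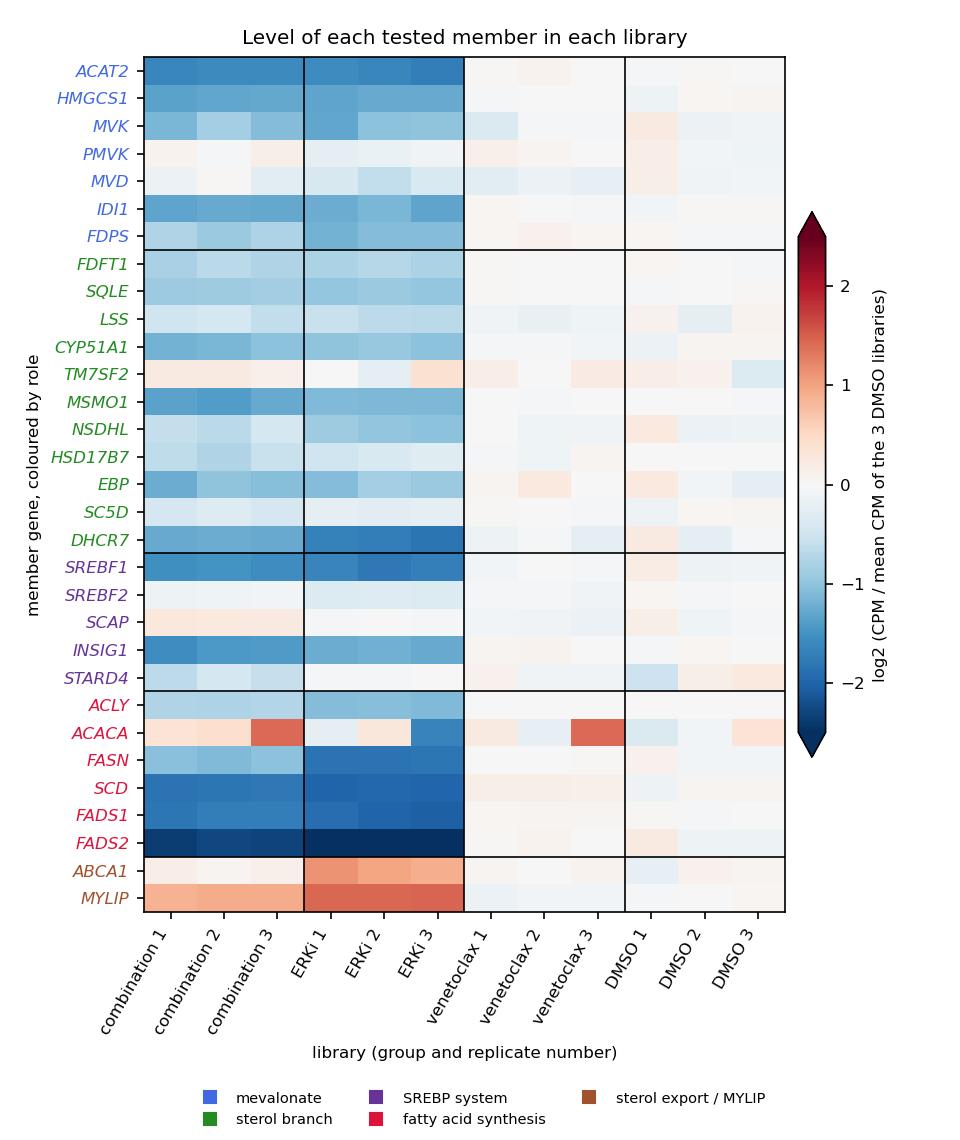
Level of the 31 tested members (rows, by role) in each of the 12 libraries (columns, 3 each for combination, ERK inhibitor, venetoclax and DMSO), as log2 of CPM over the mean CPM of the DMSO libraries, blue lower and red higher; colours stop at the ends of the scale. Most rows are blue in the 6 libraries that received the ERK inhibitor and pale in the venetoclax and DMSO libraries, with MYLIP red in all 6 and ABCA1 red in the 3 ERK inhibitor libraries.

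Of the 7 mevalonate genes, 5 fell with the combination and 6 with the ERK inhibitor, with median log2 fold changes of -1.03 and -1.11 against DMSO. HMGCS1, which joins acetyl-CoA and acetoacetyl-CoA to HMG-CoA (chr5:43287470-43313412, GRCh38.p14), had 86.4, 88.7 and 89.8 CPM in combination libraries and 86.8, 90.6 and 90.1 CPM in ERK inhibitor libraries. It had 213, 215 and 214 CPM in venetoclax libraries and 198, 224 and 229 CPM in DMSO libraries. The 6 libraries with the ERK inhibitor lay close together and far below the other 6, with no overlap. Its log2 fold change against DMSO was -1.30 ± 0.05 (SE, as after every fold change here) with the combination (adjusted p = 3.02e-12) and -1.28 ± 0.05 with the ERK inhibitor (adjusted p = 1.52e-12).

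ACAT2, the cytosolic thiolase that makes acetoacetyl-CoA, fell most among the mevalonate genes, to 18.6, 19.2 and 19.1 CPM in combination and 19.5, 18.7 and 17.4 CPM in ERK inhibitor libraries, against 56.7, 58.7 and 57.6 CPM in DMSO libraries. The log2 fold change was -1.60 ± 0.06 with the combination and -1.64 ± 0.06 with the ERK inhibitor. In GENCODE 29, 52.3% of its exon bases also lie in genes of the opposite strand, SOD2, SOD2-OT1 and TCP1. The strand setting of the counting is not known, so reads of these genes cannot be told apart there. The same limit holds for 15% of the exon bases of HMGCS1, 14.8% of those of IDI1 and 18.6% of those of FDPS. IDI1, the isomerase of isopentenyl diphosphate, averaged 76.3 ± 1.6 CPM in combination, 79.1 ± 4.6 CPM in ERK inhibitor and 185 ± 7 CPM in DMSO libraries (SD, n = 3 each), a log2 fold change of -1.28 and -1.23. MVK, mevalonate kinase, was at 7.79 to 9.53 CPM in combination and 7.01 to 8.66 CPM in ERK inhibitor libraries, against 15.5 to 20.1 CPM in DMSO libraries.

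The later mevalonate steps were less uniform. FDPS, farnesyl diphosphate synthase, had 46.2, 40.9 and 45.6 CPM in combination, 34.7, 36.9 and 36.8 CPM in ERK inhibitor and 81.2, 77.0 and 76.4 CPM in DMSO libraries. The 3 groups did not overlap, and the combination lay between the other 2: the log2 fold change was -0.82 ± 0.06 with the combination and -1.11 ± 0.06 with the ERK inhibitor against DMSO. MVD, which decarboxylates mevalonate diphosphate, was at -0.12 (adjusted p = 0.22) with the combination and fell with the ERK inhibitor (log2 -0.47, adjusted p = 0.000113), with 32.9 to 39.8 CPM in combination, 25.5 to 29.9 CPM in ERK inhibitor and 36.9 to 43.5 CPM in DMSO libraries. PMVK, phosphomevalonate kinase, was not called against DMSO in either group, with 28.4 to 32.7 CPM in combination, 24.8 to 27.8 CPM in ERK inhibitor and 27.3 to 32.9 CPM in DMSO libraries; without DMSO replicate 3 it was called with the ERK inhibitor (log2 -0.23, adjusted p = 0.027).

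**Figure D2:**
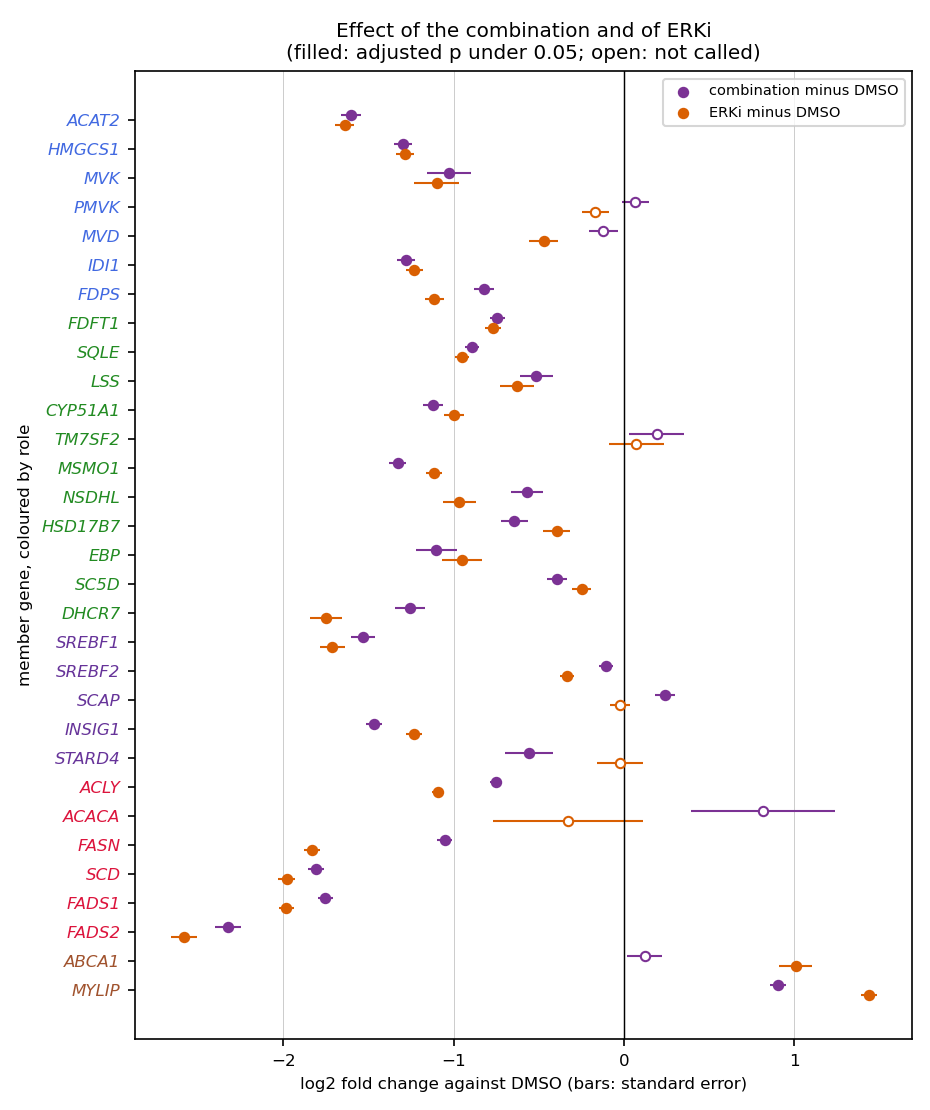
Log2 fold change against DMSO of each tested member for the combination and the ERK inhibitor alone (points, with SE from the edgeR fit, n = 3 libraries a group), by role; filled points passed an adjusted p under 0.05. Most points lie left of 0 in both comparisons, FADS2 farthest at -2.32 and -2.58, while ABCA1 and MYLIP lie right of 0 with the ERK inhibitor.

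In the sterol branch 10 of 11 genes fell in both comparisons, with medians of -0.74 for the combination and -0.95 for the ERK inhibitor. SQLE, squalene epoxidase, a rate-limiting step after mevalonate, had 154, 157 and 159 CPM in combination, 149, 154 and 148 CPM in ERK inhibitor, 295, 289 and 289 CPM in venetoclax and 281, 294 and 298 CPM in DMSO libraries. Its levels in the 6 libraries with the ERK inhibitor were well apart from those of the other 6, with log2 fold changes of -0.89 ± 0.04 for the combination and -0.95 ± 0.04 for the ERK inhibitor against DMSO. FDFT1, squalene synthase, the first committed sterol enzyme, fell by 0.74 and 0.77 on the log2 scale.

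DHCR7, which reduces 7-dehydrocholesterol, fell most in the branch with the ERK inhibitor. It was at 21.2, 21.4 and 21.4 CPM in combination and 15.8, 15.3 and 14.4 CPM in ERK inhibitor libraries, against 46.9, 49.4 and 43.9 CPM in venetoclax and 59.2, 43.9 and 49.9 CPM in DMSO libraries. No group with the ERK inhibitor overlapped one without it, and the combination stood above the ERK inhibitor in every library. The log2 fold changes against DMSO were -1.26 ± 0.09 (adjusted p = 3.03e-09) and -1.75 ± 0.09 (adjusted p = 3.54e-11).

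MSMO1, the sterol C4 methyl oxidase, fell further with the combination than with the ERK inhibitor. It had 27.5, 26.5 and 29.3 CPM in combination, 32.6, 31.9 and 32.0 CPM in ERK inhibitor and 70.2, 70.3 and 68.5 CPM in DMSO libraries, log2 -1.33 ± 0.05 and -1.12 ± 0.05. CYP51A1, lanosterol 14-alpha-demethylase, averaged 109 ± 6 CPM in combination, 119 ± 3 CPM in ERK inhibitor and 237 ± 21 CPM in DMSO libraries (SD, n = 3 each). EBP, the sterol isomerase, was at -1.10 and -0.95, and NSDHL, which works with MSMO1 at carbon 4, at -0.57 and -0.97. Most of the CYP51A1 exon bases (79.4%) also belong to a same-strand transcript that GENCODE 29 annotates as its own gene and that has no row in the table.

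The smaller falls were those of HSD17B7 (-0.64 and -0.39), LSS (-0.51 and -0.63) and SC5D (-0.39 and -0.25), a reductase, the lanosterol synthase and a desaturase of the pathway. HSD17B7 and FDPS have near-identical pseudogene copies, and how reads shared with them were counted is not given in the sources used here. TM7SF2, a C14 sterol reductase, was not called, with 6.97 to 7.47 CPM in combination, 5.45 to 8.29 CPM in ERK inhibitor and 5.03 to 7.20 CPM in DMSO libraries. Its intervals against DMSO ran from -0.18 to 0.57 for the combination and from -0.30 to 0.45 for the ERK inhibitor.

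Within the SREBP system the genes moved in different ways. SREBF1, which encodes the SREBP-1 factors, had 47.2, 48.6 and 46.8 CPM in combination, 43.8, 39.8 and 42.2 CPM in ERK inhibitor, 130, 136 and 133 CPM in venetoclax and 157, 126 and 129 CPM in DMSO libraries. The log2 fold change against DMSO was -1.53 ± 0.07 (adjusted p = 1.47e-11) for the combination and -1.71 ± 0.07 (adjusted p = 1.84e-12) for the ERK inhibitor. SREBF2, which encodes SREBP-2, the main activator of cholesterol genes, moved far less, with 238, 244 and 249 CPM in combination, 206, 210 and 206 CPM in ERK inhibitor and 271, 254 and 259 CPM in DMSO libraries. For the combination the log2 fold change was -0.10 (adjusted p = 0.0342), a call that was lost in 8 of 14 other settings: without combination replicate 1 it was -0.09 (adjusted p = 0.11), without replicate 2 it was -0.11 (adjusted p = 0.0621), and under upper-quartile scaling it was 0.00 (adjusted p = 0.925). With the ERK inhibitor SREBF2 fell by 0.33 on the log2 scale (adjusted p = 1.35e-06).

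INSIG1, which retains SCAP and is itself a target of the SREBP factors, fell to 107, 116 and 117 CPM in combination and 132, 136 and 132 CPM in ERK inhibitor libraries, against 330, 335 and 314 CPM in venetoclax and 301, 322 and 316 CPM in DMSO libraries. Its log2 fold changes against DMSO were -1.46 ± 0.05 and -1.23 ± 0.05. SCAP, the escort protein gene, was 1 of the 2 members that rose with the combination against DMSO, with 82.4, 81.9 and 80.6 CPM in combination, 67.4, 69.3 and 67.2 CPM in ERK inhibitor and 76.2, 64.1 and 66.7 CPM in DMSO libraries. The rise was 0.24 ± 0.06 (adjusted p = 0.0017), while the ERK inhibitor alone was at -0.02 (95% interval -0.16 to 0.11).

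STARD4, a cytosolic sterol carrier, depended on DMSO replicate 1. It had 20.4, 23.8 and 21.7 CPM in combination, 31.7, 31.0 and 32.7 CPM in ERK inhibitor, 34.5, 30.2 and 30.4 CPM in venetoclax and 22.5, 35.9 and 38.4 CPM in DMSO libraries, replicate 1 first. The low DMSO value overlapped the combination. With all libraries the combination was at -0.56 (adjusted p = 0.00228) and the ERK inhibitor at -0.02 (adjusted p = 0.895) against DMSO, and without DMSO replicate 1 the values were -0.76 (adjusted p = 1.8e-08) and -0.23 (adjusted p = 0.00643).

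**Figure D3:**
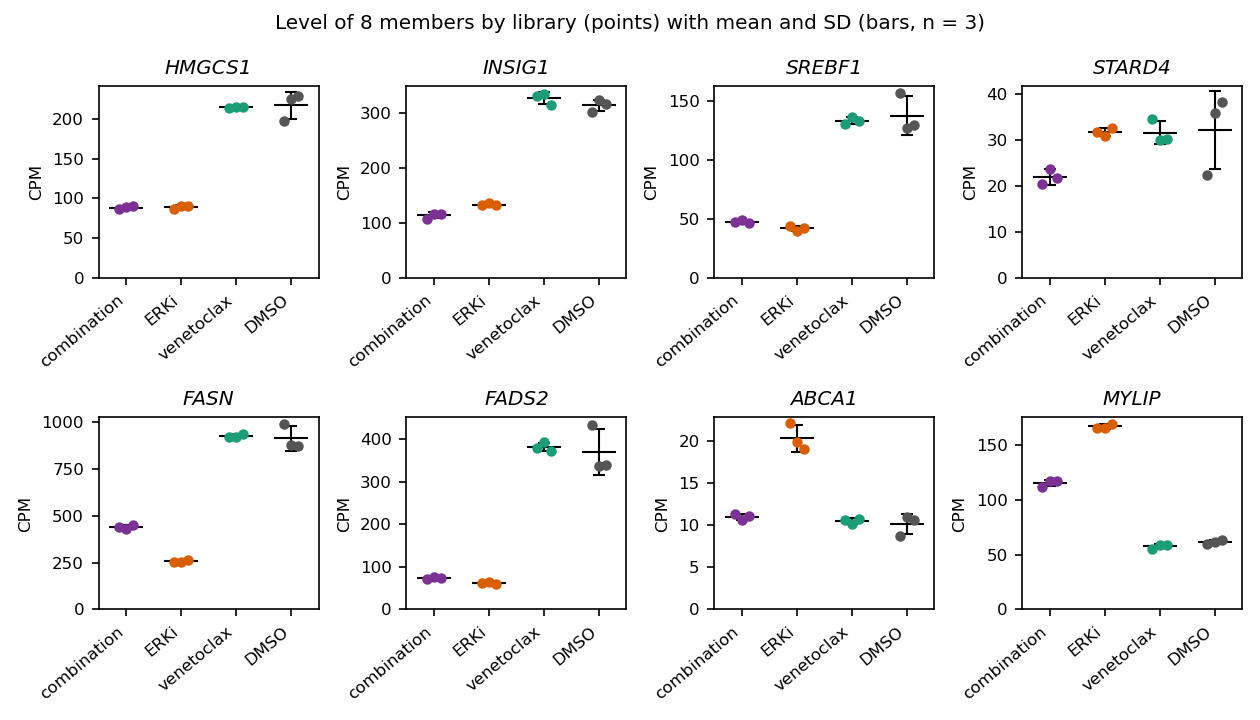
CPM of 8 members in every library (points) with the mean and SD of each group (n = 3), groups in the order combination, ERK inhibitor, venetoclax, DMSO. HMGCS1, INSIG1, SREBF1, FASN and FADS2 are low in both groups that received the ERK inhibitor, STARD4 is low in the combination and in 1 DMSO library at 22.5 CPM, ABCA1 is raised in ERK inhibitor libraries, and MYLIP is raised in both groups.

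Fatty acid synthesis and desaturation genes held the largest falls, 5 of 6 tested genes in each comparison, with medians of -1.40 for the combination and -1.91 for the ERK inhibitor. Together the 7 genes gave 1191 to 1233 CPM in combination, 885 to 902 CPM in ERK inhibitor, 3216 to 3236 CPM in venetoclax and 3038 to 3148 CPM in DMSO libraries. Per kilobase of exon in DMSO libraries, SCD (168 CPM per kb), ACLY (100.5 CPM per kb) and FASN (97.6 CPM per kb) were the highest of all 33 members, followed by INSIG1 (85.8 CPM per kb).

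FASN, the fatty acid synthase, had 443, 428 and 450 CPM in combination, 255, 253 and 262 CPM in ERK inhibitor, 923, 924 and 938 CPM in venetoclax and 989, 877 and 876 CPM in DMSO libraries. The combination thus lay between the ERK inhibitor and DMSO with no overlap on either side. Log2 fold changes against DMSO were -1.05 ± 0.05 (adjusted p = 7.08e-12) for the combination and -1.83 ± 0.05 (adjusted p = 7.41e-15) for the ERK inhibitor. ACLY, which makes cytosolic acetyl-CoA from citrate for both pathways, showed the same order, with 311, 307 and 316 CPM in combination, 246, 251 and 243 CPM in ERK inhibitor and 524, 520 and 529 CPM in DMSO libraries, log2 -0.75 ± 0.04 and -1.09 ± 0.04.

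SCD, the delta-9 desaturase that makes oleate, had 251, 259 and 261 CPM in combination, 224, 233 and 229 CPM in ERK inhibitor, 994, 1002 and 986 CPM in venetoclax and 825, 940 and 940 CPM in DMSO libraries. It fell by 1.81 and 1.98 on the log2 scale against DMSO. FADS2 and FADS1, the delta-6 and delta-5 desaturases of polyunsaturated fatty acids, lie head to head on chromosome 11 (61816203 to 61867354, plus strand, and 61799627 to 61817003, minus strand) and share 490 exon bases on opposite strands in GENCODE 29. FADS2 had 71.2, 76.0 and 74.2 CPM in combination, 61.3, 63.2 and 60.3 CPM in ERK inhibitor and 432, 337 and 340 CPM in DMSO libraries, the largest fall of any member, log2 -2.32 ± 0.08 (adjusted p = 3.03e-13) and -2.58 ± 0.08 (adjusted p = 4.53e-14). FADS1 fell by 1.75 and 1.98.

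ACACA, acetyl-CoA carboxylase, gave no stable value. Its counts were 196, 194 and 402 in combination, 141, 208 and 53 in ERK inhibitor, 183, 135 and 426 in venetoclax and 126, 158 and 211 in DMSO libraries. The coefficient of variation was 45.3%, 57.4%, 61.7% and 25.4% in these groups, against medians of 3.67%, 3.25%, 2.89% and 7.57% over the other 30 tested members. It was called in neither comparison with DMSO. ELOVL6, an elongase of saturated fatty acids, had 0 to 3 counts in every library, which is too few for a fold change.

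Of the LXR-driven genes, MYLIP and ABCA1 rose with the ERK inhibitor. MYLIP, a ubiquitin ligase that degrades lipoprotein receptors, had 112, 117 and 117 CPM in combination, 166, 166 and 169 CPM in ERK inhibitor, 55.5, 59.0 and 58.9 CPM in venetoclax and 60.1, 61.4 and 63.5 CPM in DMSO libraries. Both groups with the ERK inhibitor stood above the groups without it, at log2 0.90 ± 0.05 (adjusted p = 5.31e-11) for the combination and 1.44 ± 0.05 (adjusted p = 9.63e-14) for the ERK inhibitor against DMSO.

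ABCA1, which exports cholesterol to lipid-poor apolipoprotein, had 11.3, 10.6 and 11.1 CPM in combination, 22.1, 19.9 and 19.0 CPM in ERK inhibitor, 10.6, 10.1 and 10.8 CPM in venetoclax and 8.75, 10.9 and 10.6 CPM in DMSO libraries. ERK inhibitor libraries alone were raised, and the combination overlapped DMSO. The log2 fold change against DMSO was 0.12 ± 0.10 (adjusted p = 0.307) for the combination and 1.01 ± 0.10 (adjusted p = 7.75e-08) for the ERK inhibitor. ABCG1, another sterol exporter, had 0 to 7 counts in every library and was not tested.

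Setting the combination against the ERK inhibitor alone asks what venetoclax did on top of ERK inhibition. Here 13 members were higher and 7 were lower, beside 26.5% and 24.3% of all tested genes, so the lower count was close to the background share. The median of the members was 0.11, against 0.00 over all tested genes. By role, 6 of 6 tested fatty acid genes were higher (median 0.30). The 6 include ACACA, which lost its call in 5 of 14 other settings, and FADS2, which lost it in 1. Of 7 mevalonate genes 3 were higher and none lower, and of 11 sterol genes 2 were higher and 3 lower. Of 5 SREBP system genes 2 were higher and 2 lower, and both tested LXR-driven genes were lower. Of the 24 members lower with the ERK inhibitor against DMSO, 10 were higher in the combination than with the ERK inhibitor, 4 were lower and 10 were not called. Both comparisons use the same ERK inhibitor libraries.

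Apart from ACACA, FASN had the largest rise, at 0.78 ± 0.05 (adjusted p = 2.36e-09). DHCR7 (0.49 ± 0.10), NSDHL (0.40 ± 0.10), MVD (0.35 ± 0.09) and ACLY (0.34 ± 0.04) were also higher in the combination, and FDPS (0.29), SCAP (0.26), FADS2 (0.26), FADS1 (0.23), SREBF2 (0.23), PMVK (0.23) and SCD (0.17) by less. In each of these 12 the 3 combination libraries lay above the 3 ERK inhibitor libraries. The 12 were picked by their calls in this same comparison, so this separation adds no support. SQLE and SREBF1, which were not called, were separated in the same way. The FADS2 call was lost without combination replicate 2 (0.23, adjusted p = 0.0559). The PMVK call was lost without ERK inhibitor replicate 1 (0.19, adjusted p = 0.0912) or 2 (0.24, adjusted p = 0.0501) and without combination replicate 1 (0.21, adjusted p = 0.0775) or 3 (0.18, adjusted p = 0.122). SREBF1, at 0.18, just missed the threshold (adjusted p = 0.0532) and passed it in DESeq2 (adjusted p = 0.0309). ACACA was called at 1.14 ± 0.43 (adjusted p = 0.0349), but DESeq2 gave an adjusted p of 0.0893 and leaving out combination replicate 3 gave 0.70 (adjusted p = 0.232), ERK inhibitor replicate 1 gave 1.19 (adjusted p = 0.0704) and ERK inhibitor replicate 3 gave 0.76 (adjusted p = 0.146).

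Lower in the combination were ABCA1 (-0.89 ± 0.10), STARD4 (-0.54 ± 0.14), MYLIP (-0.53 ± 0.05), HSD17B7 (-0.25 ± 0.08), INSIG1 (-0.23 ± 0.05), MSMO1 (-0.21 ± 0.05) and SC5D (-0.15 ± 0.06). The SC5D call (adjusted p = 0.0425) was lost in 10 of 14 other settings, including the loss of any ERK inhibitor library or of combination replicate 1 or 3 (-0.14 to -0.16, adjusted p from 0.0665 to 0.116). The HSD17B7 call was lost without ERK inhibitor replicate 3 (-0.20, adjusted p = 0.0843) and without combination replicate 2 (-0.21, adjusted p = 0.0683). CYP51A1, at -0.13 (adjusted p = 0.0917), was called without combination replicate 3 (-0.18, adjusted p = 0.0351). For HMGCS1 the difference was -0.01 with a 95% interval of -0.14 to 0.11, for ACAT2 0.04 (-0.11 to 0.18), for FDFT1 0.03 (-0.08 to 0.13), for SQLE 0.06 (-0.03 to 0.15) and for IDI1 -0.05 (-0.17 to 0.07), so at these genes differences beyond about 0.2 in either direction lie outside the intervals. INSIG1 and FASN, both known SREBP targets, lay on opposite sides of 0, and the cause was not tested.

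**Figure D4:**
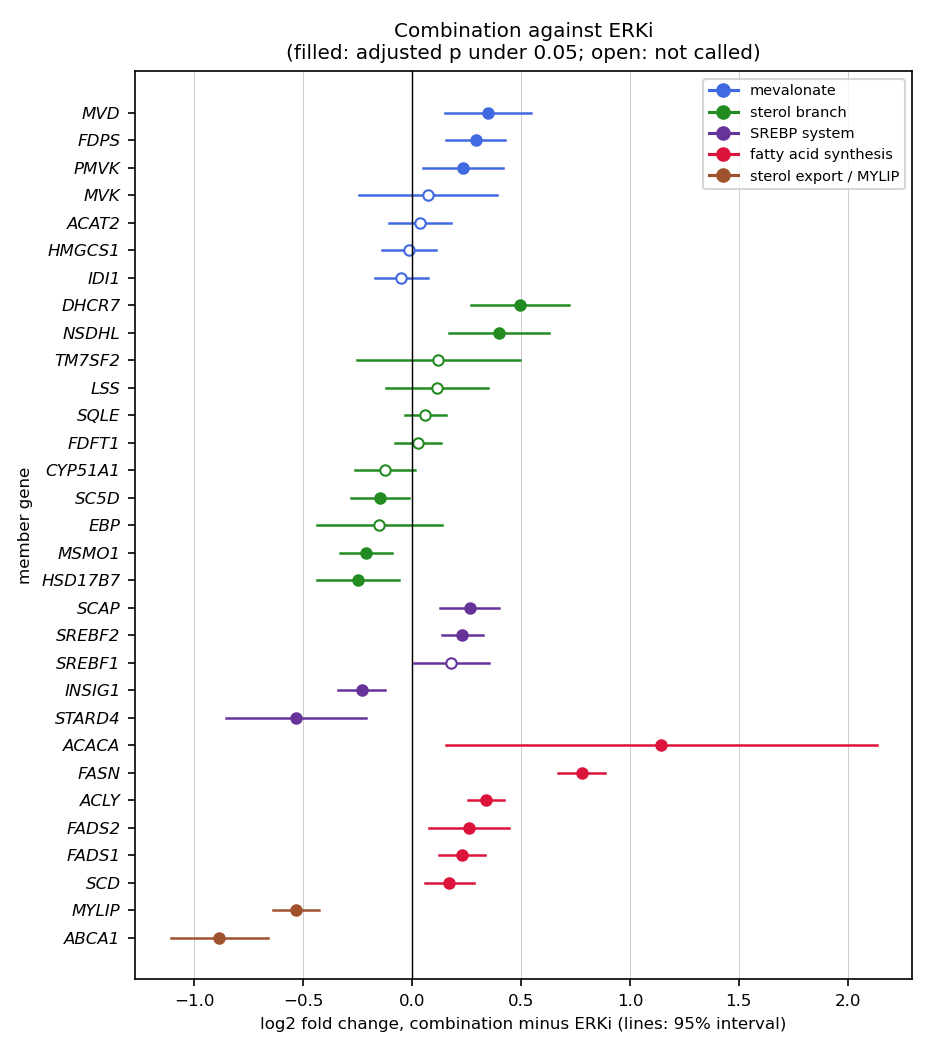
Log2 fold change of the combination over the ERK inhibitor alone for the 31 tested members, by role, with 95% intervals from the edgeR fit (n = 3 libraries a group); filled points passed an adjusted p under 0.05. The fatty acid genes lie right of 0, ABCA1, STARD4 and MYLIP lie farthest left, and many mevalonate and sterol genes straddle 0; the ACACA interval, 0.16 to 2.13, is the widest.

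The difference between the effect of venetoclax with the ERK inhibitor present and its effect without it was tested as an interaction. It was positive for 9 members and negative for 5, beside 21.3% and 18.0% of all tested genes, shares close to those of the members. FASN had 0.76 ± 0.07 (adjusted p = 4.84e-07), DHCR7 0.62 ± 0.13, MVD 0.55 ± 0.12, NSDHL 0.46 ± 0.14, SCAP 0.37 ± 0.08, ACLY 0.32 ± 0.05 and SREBF2 0.28 ± 0.06. ABCA1 had -0.94 ± 0.14 (adjusted p = 8.01e-05), MYLIP -0.44 ± 0.07 and INSIG1 -0.29 ± 0.07. These 10 calls held in all 19 other settings. The other 4 were less firm: FDPS at 0.22 (adjusted p = 0.0331), FADS1 at 0.16 (adjusted p = 0.0493), STARD4 at -0.51 (adjusted p = 0.0476; -0.30 with adjusted p = 0.0175 without DMSO replicate 1) and MSMO1 at -0.19 (adjusted p = 0.0411), each lost when any of several single libraries was left out, with highest adjusted p-values of 0.0993, 0.145, 0.118 and 0.112 on doing so. Leaving out a DMSO library also gave calls: EBP, at -0.25 with all libraries, was called without DMSO replicate 1 (-0.39, adjusted p = 0.03), and LSS, at 0.24, without replicate 2 (0.35, adjusted p = 0.042). SREBF1, at 0.23, was called without replicate 2 (0.29, adjusted p = 0.0288) or 3 (0.27, adjusted p = 0.0446), and FADS2, at 0.21, likewise (0.28, adjusted p = 0.0404, and 0.27, adjusted p = 0.0499). For SCD, which was higher in the combination than with the ERK inhibitor alone, the interaction was 0.03 with an interval of -0.12 to 0.18, and for HMGCS1 it was 0.00 (-0.17 to 0.18).

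Further genes of these pathways were counted in 6 lists, to be read beside the 34.5% of all tested genes called higher and the 35.2% called lower with the ERK inhibitor against DMSO. SREBP processing and sterol sensing genes had 5 of 13 higher and 5 lower in that comparison (median 0.07), shares near those of all genes. ERLIN1, of the endoplasmic reticulum complex that takes part in sterol-regulated degradation, was at 0.64 for the combination and 0.37 for the ERK inhibitor, and NFYA, a subunit of NF-Y, at -0.64 and -0.56. The non-sterol mevalonate branch had 2 of 8 tested genes higher and 4 lower. PDSS1, which starts the coenzyme Q side chain, was at -0.96 and -1.76, and NUS1, of the dolichol pathway, at -0.51 and -0.67. Among genes of acetyl-CoA supply, fatty acid elongation and activation, 5 of 15 were higher and 10 lower with the ERK inhibitor, including HACD3 (-0.87 for the combination and -1.03 for the ERK inhibitor) and ACSL1 (-0.54 and -1.09).

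Triglyceride and phospholipid genes had 4 of 12 higher, a share near that of all genes, and 6 lower with the ERK inhibitor. CHKA, a choline kinase, was at 0.57 for the combination and 0.55 for the ERK inhibitor, and PTDSS1, a phosphatidylserine synthase, at -0.08 (adjusted p = 0.121) and -0.33. Among LXR and RXR genes and further LXR targets, 5 of 10 were higher and 3 lower with the combination (median 0.23), beside 30.4% and 33.4% of all tested genes. The lower count was thus near the share of all genes. With the ERK inhibitor 5 were higher and 0 lower (median 0.15). RXRA, the partner receptor of LXR, averaged 358 CPM in combination, 309 CPM in ERK inhibitor and 230 CPM in DMSO libraries, with log2 fold changes of 0.64 and 0.43 against DMSO. Sterol storage and trafficking genes had 3 of 12 higher and 2 lower with the ERK inhibitor, among them GRAMD1B, an endoplasmic reticulum sterol carrier, at 1.22 and 1.65 and SCARB1, a lipoprotein receptor, at -0.45 and -1.23. Venetoclax alone gave 0 calls in these 6 lists.

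Summed levels of cell cycle, monocyte and myeloid identity markers moved with the same groups, and those of fibroblast markers did not. All 12 cell cycle genes (MKI67, TOP2A, CCNB1 and others) were lower with the combination (median log2 -1.16) and with the ERK inhibitor (median -1.78) against DMSO, beside 33.4% and 35.2% of all tested genes. All 12 were higher in the combination than with the ERK inhibitor (median 0.71), beside 26.5% of all tested genes. Their summed level was 2379 to 2416 CPM in combination, 1446 to 1459 CPM in ERK inhibitor, 4858 to 4914 CPM in venetoclax and 4421 to 4710 CPM in DMSO libraries. Of 11 tested monocyte markers of 13 listed, 8 were higher and 2 lower with the combination against DMSO, beside 30.4% and 33.4% of all tested genes. With the ERK inhibitor 9 were higher and 2 lower, beside 34.5% and 35.2%. The 13 summed to 5640 to 5790 CPM in combination, 4495 to 4612 CPM in ERK inhibitor, 572 to 588 CPM in venetoclax and 635 to 642 CPM in DMSO libraries. Of the 13, MRC1 was at 0 in all combination and all venetoclax libraries. The 7 myeloid identity genes summed to 1992 to 2034 CPM in combination and 2041 to 2084 CPM in ERK inhibitor libraries. With the combination 7 were higher and 0 lower against DMSO, beside 30.4% and 33.4% of all tested genes. With the ERK inhibitor 6 were higher and 1 went the other way, beside 34.5% and 35.2%. Fibroblast markers, 6 genes, summed to 2.10 to 2.48 CPM in combination, 10.4 to 25.2 CPM in ERK inhibitor and 6.23 to 35.0 CPM in DMSO libraries. Of the 4 tested, 3 were lower with the combination against DMSO (median -3.87), beside 33.4% of all tested genes. With the ERK inhibitor 0 were called. Venetoclax alone against DMSO had 1 of the 12 cell cycle genes higher and 1 of the 11 tested monocyte markers lower. The shares of all tested genes were 0.0198% higher and 0.382% lower. Of the myeloid identity and fibroblast markers 0 were called with venetoclax alone. The part of these shifts in the levels of the lipid genes was not tested.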

How the data were processed

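The authors deposited 1 table of raw read counts for 54628 gene symbols in 12 libraries. The tools listed in the submitters' processing notes are HISAT2, HTSeq and DESeq2, with hg38 as the build. Their versions, the annotation and the strand setting are not given in those notes. All columns matched a labelled sample and 0 rows lacked a gene name.

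From the deposited counts, genes were filtered with filterByExpr (minimum count 10, minimum total 15), leaving 15173, and libraries were scaled by TMM, so changes are relative to most genes. In edgeR 4.0.16 (R 4.3.3) a quasi-likelihood model with a coefficient for each of the 4 groups used all 12 libraries (8 residual degrees of freedom, common biological coefficient of variation 0.0727, prior count 0.125). P-values of each contrast (F test) were adjusted over the 15173 genes by the Benjamini-Hochberg method, with 0.05 as the threshold for a call. An SE is the log2 fold change over the square root of F, and a 95% interval uses the t distribution with 8 degrees of freedom. These intervals are wider than the F test implies. For the SREBF1 interaction the F test gave an unadjusted p of 0.0375, while the interval, -0.004 to 0.458, included 0. CPM values use the scaled library sizes. The depth was 19199296 to 21275065 counts a library. The 2 members below the filter had too few counts to test, and the effect of depth on the precision of the others was not tested.

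All 33 members were named. From each further list the 2 called genes with the smallest adjusted p for the ERK inhibitor against DMSO were named, with DUSP6 as a check of the labels. A gene that met this rule is not reported here. The members and lists were chosen with earlier results of these data known. Alternatives were RLE and upper-quartile scaling, DESeq2 1.42.0, limma-voom (limma 3.58.1), 2 other filters, a replicate block, the compared libraries alone, and each library left out in turn. Promoter sequences came from RefSeq (GRCh38.p14), positions of all 33 genes from RefSeq and exon overlaps and lengths from GENCODE 29. Figures were drawn with matplotlib 3.10.9.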

Additional observations from a re-analysis of the deposited data

Results flagged for a closer look

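For 14 members the effect of venetoclax with the ERK inhibitor present differed from its effect without it, in edgeR's quasi-likelihood test of the interaction with Benjamini-Hochberg adjustment. The log2 difference was positive for FASN (0.76), DHCR7 (0.62), MVD (0.55), NSDHL (0.46), SCAP (0.37), ACLY (0.32), SREBF2 (0.28), FDPS (0.22) and FADS1 (0.16). It was negative for ABCA1 (-0.94), STARD4 (-0.51, and -0.30 without DMSO replicate 1), MYLIP (-0.44), INSIG1 (-0.29) and MSMO1 (-0.19). Over all tested genes 21.3% were positive and 18.0% negative. Of the 14 calls, 10 were made in every other setting tried; FDPS lost its call in 6 of 19 settings, STARD4 in 9, FADS1 in 12 and MSMO1 in 14.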

How the results depend on the processing

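Counts of members called kept within 1.5 times of the reported ones under the settings tried, with these exceptions. For venetoclax alone, 1 member in place of 0 was called higher without a filter on low counts (ACACA, log2 0.65), and the range over leaving out each library was 0 to 1 (FADS2 without DMSO replicate 1). For the combination against the ERK inhibitor, the 7 lower members became 4 without the filter, and 5 to 7 with 1 library left out. The 5 negative interactions became 3 to 6 with 1 library left out. They were 3 without venetoclax replicate 1, 2 or 3, without ERK inhibitor replicate 1, 2 or 3 and without combination replicate 1. In these settings STARD4 and MSMO1 both lost their calls, which lay near the threshold with all libraries (adjusted p = 0.0476 and 0.0411 in edgeR's test of the interaction). The 24 members lower with the ERK inhibitor against DMSO were 23 to 25 in every setting, and those lower with the combination 23 to 24. SREBF2 in the combination against DMSO went to 0.00 under upper-quartile scaling (adjusted p = 0.925), the single called value that turned; values that were not called, such as SCAP with the ERK inhibitor (-0.02, and 0.12 under that scaling), also changed sign. Upper-quartile scaling moved the median of all genes by 0.137 for the ERK inhibitor and 0.107 for the combination against DMSO, and by 0.119 for the combination against venetoclax, and the share of calls that were higher was 58.8%, 57.1% and 57.7% in place of 49.5%, 47.6% and 48.4%. Relative to that shift the falls stood: SC5D alone lost its call with the ERK inhibitor (-0.11). Of 18 pairs of libraries with the same replicate number, 0 had a correlation of their deviations over 0.1 (range -0.074 to 0.094). Same-number pairs of DMSO and venetoclax libraries were at 0.024, 0.063 and 0.056, and those of venetoclax and combination libraries at -0.074, -0.015 and -0.018. Whether libraries with the same number were made together was not tested. With a replicate block the counts were 2 higher and 24 lower for the ERK inhibitor, 2 and 23 for the combination against DMSO, 2 and 23 against venetoclax, 12 and 6 against the ERK inhibitor, and 7 and 4 for the interaction. Single-member values numbered 2661 on the same side of the threshold, 73 that lost and 24 that gained a call.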
